A study of Mus musculus with 17 samples.

Results

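The genes described here are 9 genes of the complement system (C1ra, C1rb, C1s1, C1s2, C3, C4a, C4b, Cfp and Masp1), taken by gene symbol for their place in the classical, lectin and alternative pathways. These genes and the other gene lists below were chosen with earlier results of these data known. All 9 were found among the 56748 genes counted, and all 9 were among the 15196 genes abundant enough to be tested. They were measured by poly-A RNA sequencing in E11, an immortalised mouse line of podocytes, the epithelial cells that wrap the capillaries of the kidney glomerulus. Every culture was grown on polydimethylsiloxane (PDMS), a silicone, and the labels name no drug, genotype or time. NT (no topography, n = 5) was the PDMS control without relief. RT (round topography, n = 6) was a control that has relief but is not fractal. HF (high fractal, n = 6) carried a fractal relief drawn from traced histology of healthy glomeruli. All libraries come from 1 cell line, and the labels do not say whether replicates were separate cultures, so every p-value reflects variation among the sequenced libraries alone, and that variation may be technical.

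Complement is a cascade of proteases in blood and tissue fluid. In the classical pathway, C1q bound to a target activates C1r, which cleaves C1s, and C1s then cleaves C4 and C2 to build the enzyme that splits C3. The lectin pathway enters at the same step through proteases of the MASP family, and the alternative pathway amplifies C3 cleavage with the help of properdin, the product of Cfp. The liver makes most plasma complement, but kidney cells, podocytes among them, are known to transcribe some components, and complement deposited in the glomerulus is a feature of several kidney diseases.

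Totals ran from 14.9 to 24.1 M counts per library. Of 8 podocyte markers, 6 were tested; among the others, Ptpro, a podocyte receptor phosphatase, had at most 1 count in a library. The summed level of the podocyte markers was 680.4 to 746 CPM (counts per M of the TMM-scaled library total) in NT, 702 to 719 in RT and 682 to 698 in HF. Among 10 macrophage and leukocyte markers 5 were tested, with Adgre1 and Tyrobp at 0 in every library, and their sum was 108 to 122 CPM in NT, 113 to 125 in RT and 112 to 121 in HF. None of 5 hepatocyte and none of 6 endothelial markers was tested. Of 7 tubule markers 3 were tested, with a sum of 1255 to 1517 CPM in NT, 1310 to 1443 in RT and 1280 to 1472 in HF. Of 7 mesangial, pericyte and fibroblast markers 4 were tested, with a sum of 459.9 to 502 CPM in NT, 454 to 476 in RT and 470.4 to 502 in HF. Of the tested markers, Wt1 (a podocyte transcription factor) was lower on RT than on NT (log2 fold change -0.24, edgeR adjusted p = 6.16e-05) and on HF than on NT (-0.16, adjusted p = 0.0113), Csf1r (a macrophage growth factor receptor) was higher on RT than on NT (0.36, adjusted p = 0.00385), and none passed in HF against RT. The part of these cell types in the results was not tested.

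Several of these genes are near-identical copies, which limits how far their counts can be separated. C1ra and C1rb lie on chromosome 6, as do C1s1 and C1s2, and in each pair the mouse carries 2 versions of a protease that most mammals encode once. The aligned coding sequences of C1ra and C1rb were 98.1% identical (40 of 2120 bases differed), with an identical run of 757 bases, and 35.9% of the 100-base windows of C1ra occurred in another transcript. For C1s1 and C1s2 the identity was 96.0% (83 of 2063 bases), and the longest identical run was 229 bases. C4b and its copy C4a, which GENCODE lists as a processed transcript without a coding sequence, were 96.1% identical over 5367 aligned bases. C3, Cfp and Masp1 shared no 100-base window with another gene. The first 120 coding bases of the 4 proteases (GENCODE M21, GRCm38) are given to show how little separates the copies, with capitals where the annotated coding sequence of the partner has another base or has not yet begun.
C1ra: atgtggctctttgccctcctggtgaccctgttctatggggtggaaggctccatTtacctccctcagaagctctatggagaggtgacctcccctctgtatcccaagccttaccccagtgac
C1rb: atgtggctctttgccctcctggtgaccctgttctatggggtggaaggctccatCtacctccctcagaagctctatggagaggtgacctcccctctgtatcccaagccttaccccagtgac
C1s1: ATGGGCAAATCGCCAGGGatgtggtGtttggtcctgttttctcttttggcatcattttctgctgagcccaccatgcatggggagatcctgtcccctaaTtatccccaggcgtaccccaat
C1s2: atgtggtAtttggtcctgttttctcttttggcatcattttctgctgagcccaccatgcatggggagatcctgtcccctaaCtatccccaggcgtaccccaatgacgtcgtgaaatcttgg
In this stretch C1ra and C1rb differed at 1 base. The annotated C1s1 coding sequence began 18 bases earlier than that of C1s2, whose transcript carries the same 18 bases just before its coding start, and the pair differed at 2 further bases. Reads from the identical runs cannot be told apart, and how the counting treated them is not stated in the sources used here.

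Promoter windows, 250 bases before to 50 bases after the RefSeq start (GRCm38.p6), were available for 6 of the 9 genes: C1ra, C1rb, C1s1, C1s2, C3 and Cfp. They were searched on both strands for the letters of 4 motifs of factors known to act on complement genes, of which C/EBP (TTGCNNAA) was found in 10.8% of 32851 mouse promoters, STAT (TTCNNNGAA) in 8.30%, NF-kB (GGG and TTCC with 3 bases between) in 5.56% and IRF (GAAA and GAAA with 2 bases between) in 3.44%. None of the 6 genes had an IRF or NF-kB match. C1ra (chr6:124512371-124512670, plus strand) and C1rb (chr6:124570180-124570479, plus strand) held the same 25 bases with a C/EBP match, on the reverse strand, followed by a STAT match, shown here with the matches in capitals.
C1ra and C1rb: TTATGCAAatgcttcaTTCCCTGAA
The stretch began at +16 from the RefSeq start of C1ra and at -135 from that of C1rb, so the same DNA sits on different sides of the 2 annotated starts. C3 (chr17:57228087-57228386, minus strand) had a C/EBP match at -45 from its start, and C1s1 (chr6:124542310-124542609, minus strand) had one at -242, which lies outside the window of a second RefSeq start of C1s1 (chr6:124542272-124542571) that held no match; their 250 upstream bases are shown because both genes differed between surfaces, with the match in capitals.
C3: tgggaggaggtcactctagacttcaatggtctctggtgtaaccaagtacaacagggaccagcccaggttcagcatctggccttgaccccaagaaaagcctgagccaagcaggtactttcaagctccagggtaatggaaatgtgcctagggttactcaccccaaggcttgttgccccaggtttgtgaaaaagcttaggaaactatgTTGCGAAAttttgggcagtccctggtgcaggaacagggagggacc
C1s1: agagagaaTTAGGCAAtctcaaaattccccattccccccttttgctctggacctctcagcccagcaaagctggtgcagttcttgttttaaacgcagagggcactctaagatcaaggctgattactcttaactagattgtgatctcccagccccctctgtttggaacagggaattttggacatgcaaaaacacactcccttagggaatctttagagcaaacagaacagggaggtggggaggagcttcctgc
Windows of C1s2 and Cfp had no match to any of the 4. A match describes letters only.

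Levels between genes were compared on NT as CPM per kilobase of the longest transcript. C3, the protein on which all 3 pathways meet, was the most abundant complement gene, at 424 ± 49.6 CPM per kilobase (mean ± SD, n = 5). C1rb followed among the 9 genes at 70.4 ± 1.87, then C1s1 at 66.5 ± 2.39 and C1ra at 54.9 ± 1.74, and the ranges of C1rb and C1s1 overlapped. Masp1 stood at 28.7 ± 1.76. C4b, at 9.74 ± 0.943, and Cfp, at 9.60 ± 0.978, overlapped. C1s2 was at 3.65 ± 0.305 and C4a was lowest at 0.874 ± 0.134. C1ra, C1rb and C1s1 thus lay within a narrow range per length, with C4b, the substrate of C1s, below them and above C1s2. The order within that range depends on the annotated lengths. By CPM alone on NT, C1s1 (196) was above C1rb (171) and C1ra (164). How the counting treated reads shared between copies is not known, which limits the levels of the copies. Of 10 initiator genes, 1 was tested, Colec11, a collectin of the lectin pathway, at 0.561 ± 0.255 CPM on NT (n = 5), while C1qa, C1qb, C1qc, Mbl1 and Mbl2 had 0 counts in every library and Masp2 had at most 6.

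**Figure D1:**
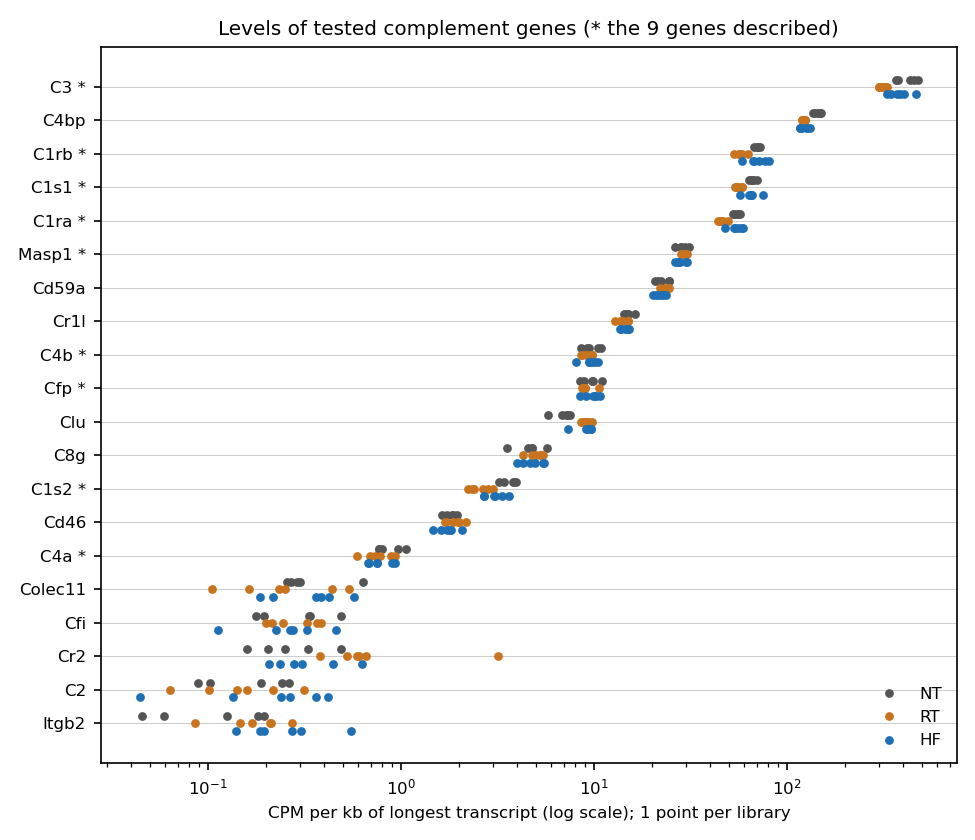
Levels per kilobase (CPM per kilobase of the longest transcript, log axis) of the 9 genes and of the 11 other complement genes tested, by surface; each point is a library and asterisks mark the 9 genes. C3 lies above every other complement gene shown on all 3 surfaces.

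The first comparison asked how the complement genes differed between the round relief and the surface without relief. C1ra, C1rb, C1s1, C1s2 and C3, which encode the C1r and C1s proteases of the classical pathway and its central substrate, were lower on RT, by 15.5% to 29.0%. C4a, C4b, Cfp and Masp1 did not pass the test. The 5 of 9 genes called lower stand beside 1.44% of all genes tested called lower in this comparison (3.97% in either direction). The median log2 fold change was -0.24 over the 9 genes and 0.00 over all genes tested. Because the 9 were chosen with earlier results of these data known, this contrast is a description and not a test of them as a set. C1ra with C1rb and C1s1 with C1s2 also share sequence, so the 5 are not separate measurements.

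C1ra encodes the protease that starts the cascade inside the C1 complex. Its NT libraries held 157, 164, 170.0, 167 and 159.7 CPM, and the RT libraries ran from 131 through a median of 137 to 148. All 6 RT libraries were below all 5 NT libraries. The log2 fold change was -0.25 (SE 0.04, 95% interval -0.33 to -0.16, edgeR adjusted p = 0.000271), and C1ra ranked 53 among all genes by p in this comparison.

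C1rb, its near-copy, held 172, 164, 176, 171 and 172 CPM on NT. On RT it ran from 129.5 through 139 to 153, again below every NT library. The difference was -0.29 on the log2 scale (SE 0.06, 95% interval -0.41 to -0.16, edgeR adjusted p = 0.00724). Since the pair shares long identical runs, the 2 results are not separate measurements.

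C1s1 encodes the protease that C1r activates and that cleaves C4 and C2. The NT libraries held 197, 192, 206, 197 and 187 CPM, and the RT libraries 159.7 to 174 with a median of 163. The groups did not overlap, and the log2 fold change was -0.24 (SE 0.04, 95% interval -0.34 to -0.15, edgeR adjusted p = 0.00124). In the annotation, 18.4% of its exonic bases overlap a gene on the opposite strand, and the libraries do not record strand.

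C1s2, the much less abundant copy, had the largest fold among the 9 genes. It held 10.5, 10.1, 9.07, 10.2 and 8.63 CPM on NT and 5.92 to 8.02, with a median of 6.73, on RT, so all RT libraries were below all NT libraries. The log2 fold change was -0.49 (SE 0.10, 95% interval -0.70 to -0.28, edgeR adjusted p = 0.00304). These values rest on 97 to 180 counts per library in the 2 groups.

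C3 is split by the convertases of all pathways into C3a and C3b, the fragment that coats targets. It held 1883, 2244, 2462, 2352 and 1938 CPM on NT and 1545 to 1701, with a median of 1614, on RT. Again the groups did not overlap, and NT spread more widely (SD 255 CPM) than RT (SD 60.8). The log2 fold change was -0.43 (SE 0.08, 95% interval -0.61 to -0.25, edgeR adjusted p = 0.00789). Groups without overlap and with RT lower made up 1.22% of all genes tested. In bulk RNA, fewer cells transcribing a gene and less RNA per cell cannot be told apart. All 5 calls held when each of the 17 libraries was left out in turn, with a highest adjusted p of 0.0291, for C1rb.

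**Figure D2:**
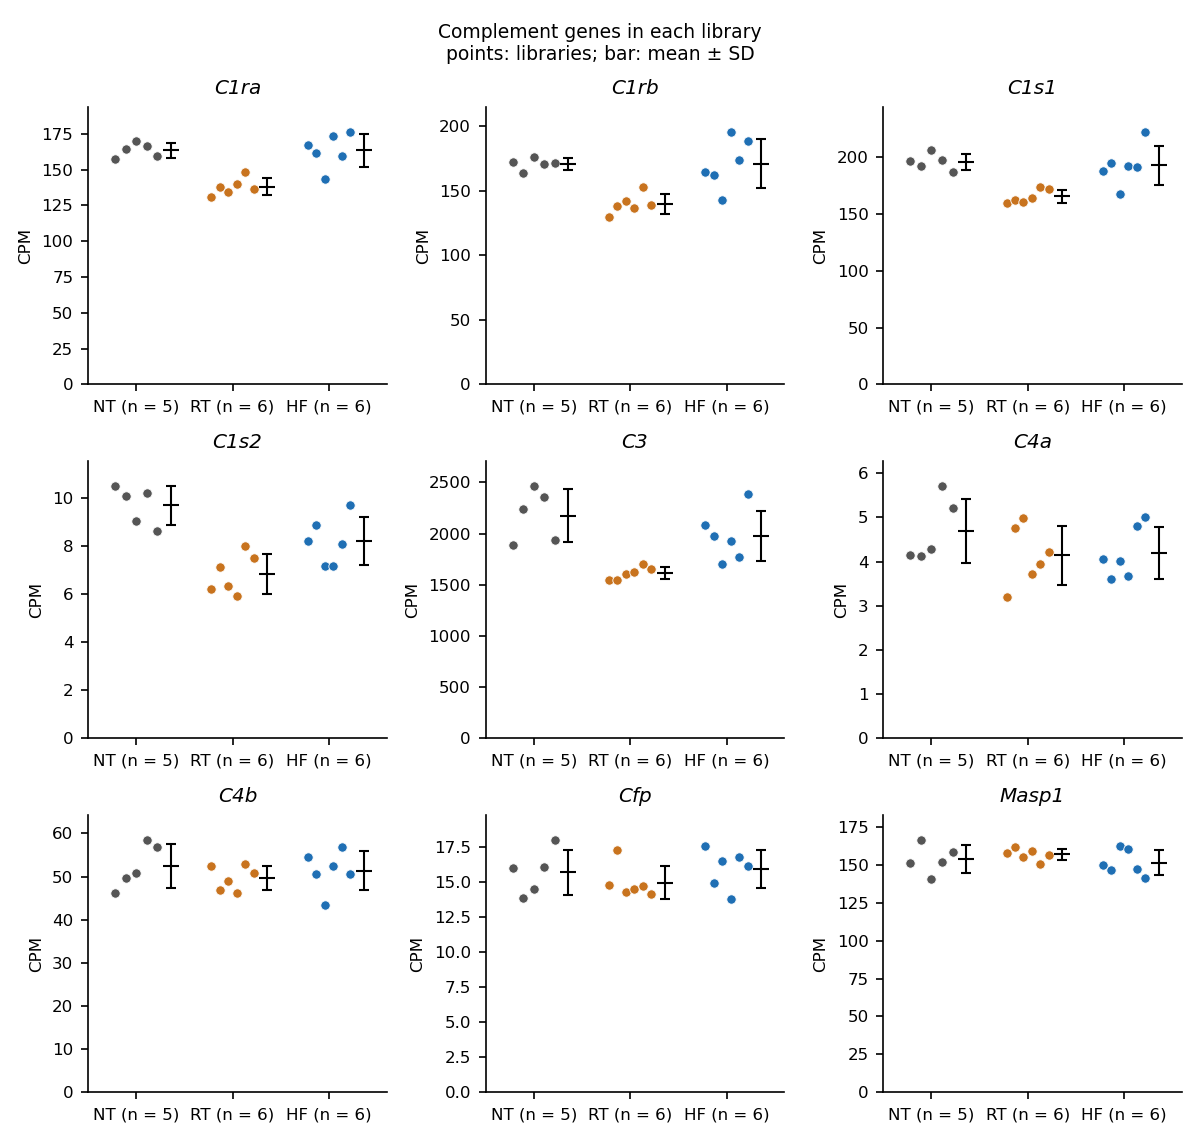
CPM of the 9 complement genes in each library (vertical axis from 0, 1 panel per gene) on NT (n = 5), RT (n = 6) and HF (n = 6); points are libraries, bars mean ± SD. For C1ra, C1rb, C1s1, C1s2 and C3 every RT point lies below every NT point, while C4a, C4b, Cfp and Masp1 overlap between surfaces.

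The second comparison set the fractal relief against the round one, which is the contrast between the 2 surfaces with relief. It shares the RT libraries with the first, so the 2 are not independent. C1ra, C1rb and C1s1 were higher on HF by 16.4% to 22.3%, 3 of 9 genes, beside 0.132% of all genes tested called higher (0.211% in either direction). The median over the 9 genes was 0.22 on the log2 scale, against 0.00 over all genes. This contrast too is a description, since the 9 were chosen with earlier results known and C1ra and C1rb share sequence.

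C1ra ran from 143 through 164 to 176 CPM on HF. The log2 fold change against RT was 0.24 (SE 0.04, 95% interval 0.16 to 0.32, edgeR adjusted p = 0.00124), which ranked 6 among all genes. C1s1 ran from 168 through 192 to 222 CPM on HF and differed by 0.22 (SE 0.04, 95% interval 0.13 to 0.31, edgeR adjusted p = 0.0180). C1rb ran from 143 through 169 to 195 CPM and differed by 0.29 (SE 0.06, 95% interval 0.17 to 0.41, edgeR adjusted p = 0.0361). For each of the 3 genes, 5 of 6 HF libraries were above every RT library, and the exception was HF 3.

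The call for C1ra held with any library left out, with a highest adjusted p of 0.00955. That for C1s1 was lost without RT 1, RT 2 or RT 3 (adjusted p 0.0614, 0.0544 and 0.0684). The call for C1rb was lost in 11 of 17 such fits (adjusted p 0.0527 to 0.0998), namely without NT 3, NT 4, NT 5, RT 1, RT 2, RT 3, RT 4, RT 6, HF 1, HF 5 or HF 6. With only HF and RT in the fit, the adjusted p was 0.129 for C1rb and 0.0690 for C1s1.

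C3 and C1s2 did not pass in this comparison. C3 ran from 1701 through 1951 to 2388 CPM on HF, with a log2 fold change of 0.29 (95% interval 0.12 to 0.46, edgeR adjusted p = 0.216), and 5 of 6 HF libraries were above every RT library. C1s2 ran from 7.17 through 8.15 to 9.72 CPM, with a log2 fold change of 0.26 (95% interval 0.05 to 0.46, edgeR adjusted p = 0.429).

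**Figure D3:**
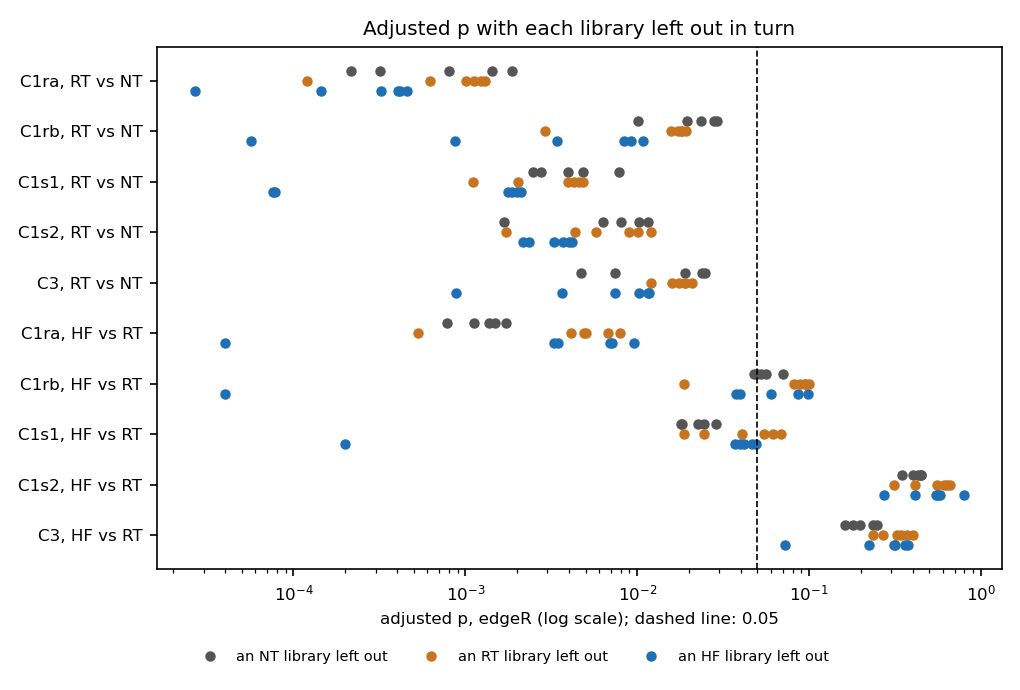
Adjusted p (edgeR, log axis) of C1ra, C1rb, C1s1, C1s2 and C3 in RT against NT and HF against RT with each of the 17 libraries left out in turn; colour gives the group of the library left out and the dashed line is 0.05. Every RT against NT point lies left of the line, whereas C1rb and C1s1 in HF against RT lie on both sides of it.

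The third comparison set the fractal relief against the surface without relief. None of the 9 genes passed the test, beside 2.33% of all genes tested. By unadjusted p under 0.05 there was 1 of 9 (C1s2), beside 14.2% of all genes, and DESeq2 and limma voom each called 0. C1ra averaged 163.6 ± 5.19 CPM on NT and 163.3 ± 11.8 on HF, a log2 difference of 0.00 with a 95% interval of -0.09 to 0.08 that does not reach the -0.25 found for RT. C1rb differed by 0.00 (95% interval -0.12 to 0.13) and C1s1 by -0.02 (95% interval -0.12 to 0.07). C1s2 was the exception in size, at -0.24 (95% interval -0.45 to -0.03, edgeR adjusted p = 0.257), and 4 of 6 HF libraries were below every NT library. C3 differed by -0.14 (95% interval -0.32 to 0.04, edgeR adjusted p = 0.500).

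**Figure D4:**
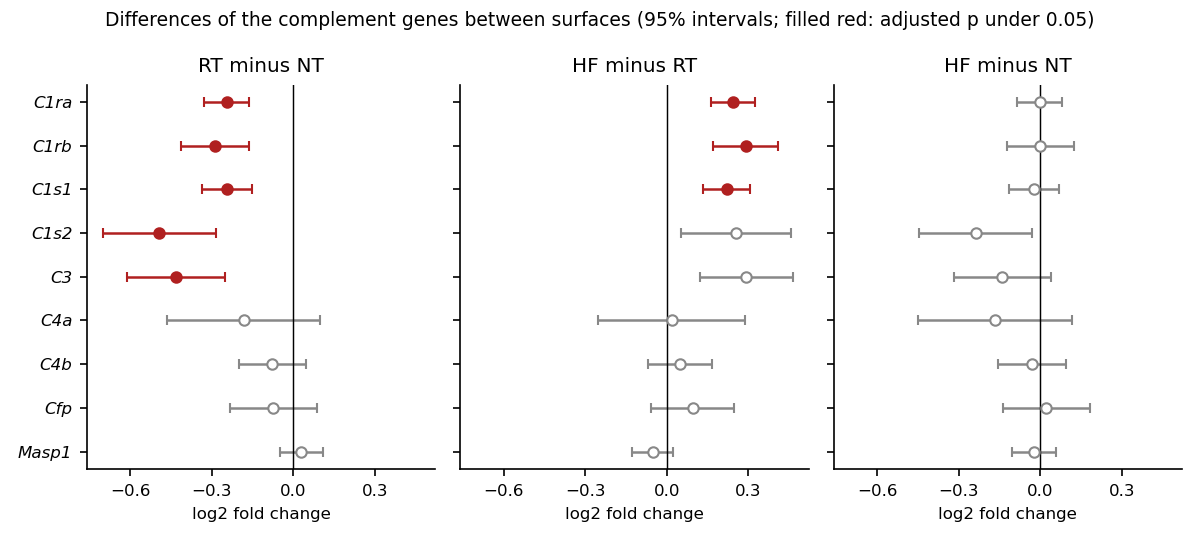
Log2 fold changes (horizontal axis) of the 9 genes for RT minus NT, HF minus RT and HF minus NT, with 95% intervals; filled points passed an adjusted p of 0.05. The 5 genes called in RT minus NT lie at or below -0.24, and the 3 called in HF minus RT lie between 0.22 and 0.29.

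The remaining 4 genes did not pass in any comparison. C4b encodes the C4 protein that C1s cleaves. It averaged 52.4 ± 5.07 CPM on NT (n = 5), 49.7 ± 2.80 on RT (n = 6) and 51.4 ± 4.59 on HF (n = 6). Its interval for RT against NT, -0.20 to 0.05, overlaps that of C1ra given above, and the genes were not tested against each other. C4a averaged 4.70 ± 0.720, 4.14 ± 0.667 and 4.20 ± 0.583 CPM on 50 to 101 counts per library. Its interval for RT against NT, -0.47 to 0.10, is wide and covers the whole interval of C1ra. Cfp encodes properdin, which stabilises the alternative convertase, and averaged 15.7 ± 1.60, 15.0 ± 1.18 and 16.0 ± 1.36 CPM. Masp1 encodes a lectin-pathway protease and, by splicing, further products that gene counts do not separate. It averaged 153.6 ± 9.38, 156.7 ± 3.82 and 151.1 ± 8.24 CPM, and its intervals lay between -0.13 and 0.11 in all 3 comparisons.

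The share of each pair that came from the second copy was compared over libraries. C1rb gave 51.1% of the C1ra and C1rb counts on NT, 50.3% on RT and 51.1% on HF, with no adjusted p below 0.461 (exact two-sided permutation tests, adjusted over 9). C1s2 gave 4.72% ± 0.383 (SD, n = 5) of the C1s1 and C1s2 counts on NT, 3.97% ± 0.352 (n = 6) on RT and 4.09% ± 0.259 (n = 6) on HF. The difference passed for HF against NT (exact permutation p = 0.00433, adjusted 0.0390) and did not for RT against NT (exact permutation p = 0.0130, adjusted 0.0584), where the smallest p possible was 0.00216. C4a gave 8.19%, 7.72% and 7.57% of the C4 counts on NT, RT and HF, with no adjusted p below 0.471 (exact permutation tests).

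How the 9 genes varied together was examined with group means removed, over 17 libraries and 36 pairs. Of these, 6 pairs had an adjusted permutation p under 0.05 by Pearson's r. The pair C1ra and C3 did so by both measures (r = 0.76, permutation p = 0.00098, adjusted 0.0134; rho = 0.80, permutation p = 0.00039, adjusted 0.0140), and r was 0.63 without HF 3 and HF 6. C1ra and C1rb had r = 0.84 (permutation p = 0.00112, adjusted 0.0134) and rho = 0.56 (permutation p = 0.0425, adjusted 0.170), and r was 0.66 without those 2 libraries; shared reads can also move this pair together. C1s1 varied opposite to Masp1 (r = -0.72, permutation p = 0.00104, adjusted 0.0134; rho = -0.70, adjusted 0.0582), with r = -0.61 without the same 2. C1ra with C1s1, C1s1 with C3 and C1s1 with C1s2 had r between 0.67 and 0.80. With HF 3 and HF 6 left out r was 0.53, 0.51 and 0.53 and permutation p was 0.0602, 0.0694 and 0.0791, all above 0.05. Fewer libraries also make a p under 0.05 harder to reach.

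The genes whose levels followed each of these most closely within groups, among 12209 genes (12210 for C3, Cfp and Masp1), are a description. C3 was most like Hp (r = 0.89), which encodes the acute-phase protein haptoglobin, and then Rsbn1l and Atp1b1 (both 0.87). Hp was also second for C1ra (0.83), after Serpinf1 (0.86) and before Nhs (0.81). C1rb was most like Hhipl1 (0.89), Pear1 (0.84) and Islr (0.81). C1s1 was most like Fgfr1 (0.94), with Abi3bp at 0.91, and C1s2 was most like Btd (0.86), Focad (0.84) and Acap2 (0.82). For Masp1 the genes were F3 (0.85), which encodes tissue factor, Phgdh (0.85) and Tango6 (0.83). C4a (Tnip2, 0.88), C4b (Sharpin, 0.82) and Cfp (Wdr27, 0.82) are given with their likest gene only.

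Of 44 other complement genes, 11 were tested and 33 were not. Among the 33, 15 had 0 counts in every library and the highest count of any was 9. The terminal genes C6, C7, C8a, C8b and C9 were at 0. Serping1, the inhibitor of C1r and C1s, had 9 counts in all libraries together. In RT against NT, 1 of the 11 was lower and 1 higher, beside 3.97% of all genes called, and in HF against NT the counts were the same, beside 2.33%. In HF against RT edgeR called 0 of 11, beside 0.211% of all genes, with 2 (Cd59a and Cr2) at an unadjusted p under 0.05, beside 8.0%. C4bp, which encodes the chain of a C4b-binding protein that shuts down the C4b-containing convertase, fell on both reliefs, from 556 ± 23.3 CPM on NT to 469 ± 8.15 on RT (log2 fold change -0.25, SE 0.04, edgeR adjusted p = 3.18e-05) and 475 ± 24.5 on HF (-0.23, SE 0.04, edgeR adjusted p = 0.000208). Every RT and HF library was below every NT library, a separation found in 1.22% of all genes tested for RT and 0.934% for HF. Clu, clusterin, an inhibitor of the terminal complex, rose from 12.5 ± 1.25 CPM to 16.5 ± 0.776 on RT (0.40, SE 0.08, edgeR adjusted p = 0.00215) and 16.4 ± 1.61 on HF (0.39, SE 0.08, edgeR adjusted p = 0.00453). All RT libraries were above all NT libraries for Clu, as for 2.18% of genes tested, and so were 5 of 6 HF libraries. The membrane regulators Cr1l (58.2 ± 3.04, 54.4 ± 3.25 and 56.1 ± 2.53 CPM on NT, RT and HF) and Cd59a (41.0 ± 3.14, 43.0 ± 1.55 and 39.5 ± 2.25) did not pass.

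**Figure D5:**
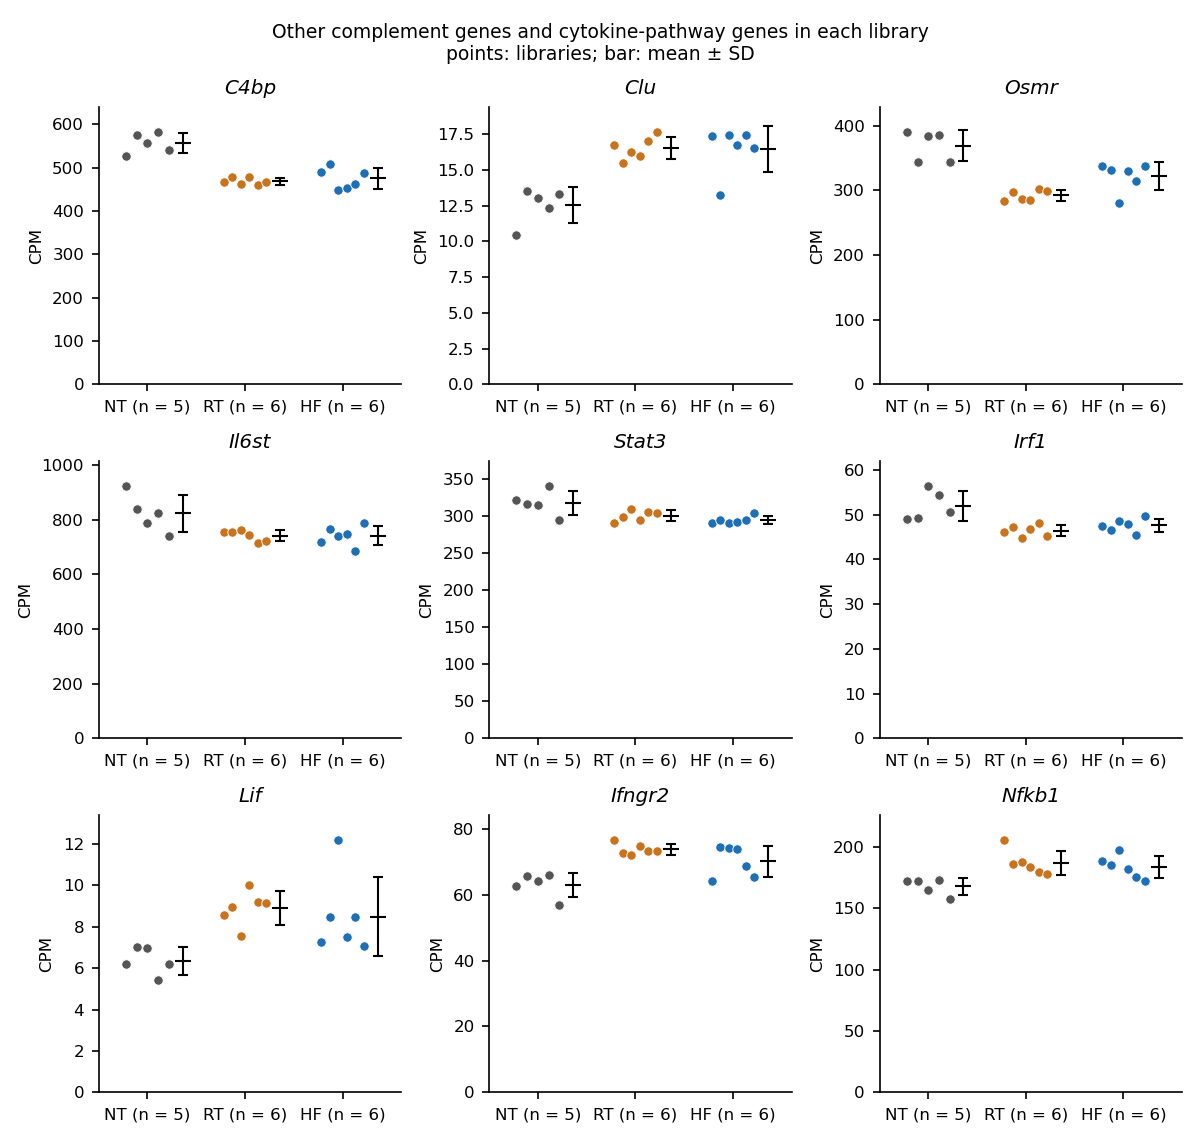
CPM in each library of other complement genes and of cytokine receptor and transcription factor genes (vertical axis from 0, 1 panel per gene) on NT (n = 5), RT (n = 6) and HF (n = 6); points are libraries, bars mean ± SD. C4bp and Osmr are lower and Clu is higher on RT than on NT without overlap.

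Complement genes are known to be induced by interleukin 6 family cytokines, interferons and NF-kB. The list used held 36 cytokine, receptor, signalling and transcription factor genes known to act on complement genes. It reaches beyond those routes, for instance to Hnf4a and Nr1h4. The untested genes were all cytokines. Osm, Ifng and Ifnb1 had 0 counts in every library, and Il6, Il1b, Il1a and Tnf had at most 9 in any. The other 29 were tested. In RT against NT 4 were higher and 4 lower (17 of 29 at an unadjusted p under 0.05), where 3.97% of all genes tested were called and 17.1% had an unadjusted p under 0.05. In HF against NT 2 were lower and 0 higher (14 unadjusted), beside 2.33% called and 14.2% unadjusted over all genes. In HF against RT edgeR called 0 (5 unadjusted), beside 0.211% and 8.0%. Osmr, the oncostatin M receptor, held 369 ± 23.6 CPM on NT, 292 ± 8.05 on RT and 322 ± 21.9 on HF; it fell by 0.34 (log2, SE 0.04, edgeR adjusted p = 6.16e-06) on RT and by 0.20 (SE 0.04, edgeR adjusted p = 0.00666) on HF, with every RT and HF library below every NT library. Il6st, the shared gp130 receptor chain, held 823 ± 67.2, 742 ± 19.1 and 741 ± 35.3 CPM, and its falls (edgeR adjusted p = 0.0328 on RT and 0.0410 on HF) were lost in 6 and 11 of the 17 fits that left out 1 library. Ifngr2, a chain of the interferon gamma receptor, rose by 0.23 on RT (SE 0.04, edgeR adjusted p = 0.00182), a call that held with any library left out. Irf1 was lower by -0.16 (edgeR adjusted p = 0.0308), Nfkb1 was higher by 0.15 (adjusted p = 0.0191), Lif by 0.49 (adjusted p = 0.0128) and Hnf4a, at 0.299 ± 0.207 CPM on NT and 0.823 ± 0.323 on RT, by 1.52 (adjusted p = 0.0252), and each of these calls was lost in at least 1 of the 17 fits. Stat3 (317 ± 16.3, 300.3 ± 7.08 and 294 ± 4.96 CPM) and Ifngr1 (213 ± 9.32, 198 ± 10.5 and 210.1 ± 9.40) did not pass.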

How the data were processed

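RNA-seq libraries of NT (n = 5), RT (n = 6) and HF (n = 6) were used. The authors deposited raw counts per gene, not normalized. Poly-A selection, non-directional preparation and paired reads are stated per the labels' protocols. CASAVA, HISAT2 2.0.5, featureCounts 1.5.0-p3 and GRCm39 are named per the submitters' processing notes; the annotation release and strand setting are not given in the sources used here. Symbols (52073 of 56748 identifiers matched), transcript lengths and sequences came from GENCODE M21 (GRCm38), and promoters from RefSeq.

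Genes were filtered with filterByExpr (15196 kept, 14933 with a symbol), normalised with TMM and tested in edgeR 4.0.16 (quasi-likelihood, robust, 3 groups in 1 fit, two-sided), with Benjamini-Hochberg adjustment across every tested gene and a threshold of 0.05. The standard error is the log2 fold change over the square root of F. Likeness used log2 CPM with a prior count of 2. Alternatives used RLE scaling, DESeq2 1.42.0, limma 3.58.1, no filter, 2 groups, a replicate block, summed copies and each library left out. The edgeR step was run on counts simulated with mean levels and spread estimated from these data, which checks the code and not the calls.

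The members and lists were chosen with earlier results of these data known. All members are named, as are genes of the other 2 lists that passed and the 4 most abundant of each, and the 3 genes most like each member, of which the first is given for C4a, C4b and Cfp. Some genes that these rules take are not reported here.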

Additional observations from a re-analysis of the deposited data

Results flagged for a closer look

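Among 36 groups of values examined, 1 library stood apart. Cfp was at 17.3 CPM in RT 2, against 14.8 in the next RT library and 14.2 in the lowest, so the gap took 0.808 of the range. Chance sets apart about 1 in 20 such groups. Cfp did not pass in any comparison.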

How the results depend on the processing

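The 5 lower genes in RT against NT were called under 6 alternatives (RLE scaling, DESeq2, limma voom, no filter, only 2 groups, replicate block) and in all 17 fits that left out 1 library. With the copies summed, the C1r sum, the C1s sum and C3 were called, and the single copies were not tested. C1ra in HF against RT was called in those 6 and 17 fits as well. The number of genes called over the whole table moved more. Without the abundance filter it was 597 for HF against NT (354 as reported) and 148 for HF against RT (32). With DESeq2 it was 564 and 84. With only 2 groups in the fit it was 200 and 113, and there C1rb (0.29) and C1s1 (0.22) in HF against RT no longer passed. Leaving out 1 library gave 202 (without NT 3) to 604 (without NT 5) genes for HF against NT, 14 (without RT 1) to 89 (without HF 3) for HF against RT, and 365 (without NT 3) to 806 (without NT 5) for RT against NT (603). Across those fits C1rb in HF against RT ranged from 0.25 to 0.34, C1s1 from 0.18 to 0.26 and C1ra from 0.22 to 0.28. In RT against NT, C1ra ranged from -0.27 to -0.23, C1rb from -0.32 to -0.27, C1s1 from -0.26 to -0.22, C1s2 from -0.55 to -0.45 and C3 from -0.48 to -0.38. The sum of C1s1 and C1s2 also passed in HF against RT (0.22, adjusted p = 0.0199), a sum made mostly of C1s1. DESeq2 gave no adjusted p for Hnf4a. The causes of these moves were not tested beyond the samples and genes each fit left out.

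With the replicate number as a block, 995 genes were called for RT against NT, 637 for HF against NT and 125 for HF against RT, and the calls of the 9 genes were the same. The labels do not say what a number shares. Deviations of same-numbered libraries correlated at -0.01 to 0.19 over 16 pairs (median 0.05, 2 over 0.1). Those of differently numbered libraries correlated at -0.13 to 0.06 over 80 pairs (median -0.02, 0 over 0.1). Of 17 libraries, 8 correlated best with their own number. The numbers were to be taken as pairs only if every same-numbered pair was over 0.1, and this was not met. That does not show that the numbers share nothing. C4a and C1s2, with the fewest counts, have the widest intervals.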
